A study of Mus musculus with 66 samples.

Results

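The 10 genes described here encode the cleavage stimulation factor CstF (Cstf1, Cstf2, Cstf2t, Cstf3), the 2 subunits of cleavage factor II (Pcf11, Clp1), 2 poly(A) polymerases (Papola, Papolg), the nuclear poly(A) binding protein (Pabpn1) and the nuclear 5′ to 3′ exonuclease Xrn2. Members were matched by gene symbol, and the rule itself uses no measured value. They are 10 of the 18115 genes listed in at least 1 of the assays. In 3'READS, which sequences the 3′ ends of poly(A)+ RNA, all 10 of 15856 genes were listed, with 48 of the 59578 pA sites. In RNA-seq, 5 of them were listed among 9999 genes (Cstf2t, Cstf3, Pcf11, Clp1 and Papola), and 5 were not (Cstf1, Cstf2, Papolg, Pabpn1 and Xrn2).

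Mature 3′ ends of most mRNAs are made by cutting the nascent transcript downstream of a hexamer, most often AAUAAA, and adding a poly(A) tail. CPSF reads the hexamer and cuts the RNA, CstF binds the U- or GU-rich stretch behind the cut, and cleavage factor II is needed for cleavage and for termination by RNA polymerase II. Poly(A) polymerase then adds the tail under the control of Pabpn1, and Xrn2 degrades the downstream RNA that is left on the polymerase. Cstf3 and Pcf11 are both known to hold an intronic pA site that competes with the full-length mRNA, a feedback of 3′ end factors on their own genes.

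Both assays were made from C2C12 cells, a line of mouse myoblasts, transfected for 48 h with siRNA at 50 nM. The control siRNA (siCtrl), the siRNA against Paf1 (siPaf1) and the siRNA against Cdc73 (siCdc73) were each sequenced once in batch 1 and once in batch 2. The siRNA against Ski8 (siSki8), whose gene has the symbol Wdr61, was sequenced in batch 2 only. All 3 targets are subunits of the PAF complex, which travels with RNA polymerase II, and each was depleted with 1 siRNA sequence. All groups were transfected myoblasts of the same line, the siSki8 values have no replicate, and every knockdown was compared with the same siCtrl libraries. Nothing in the labels says that the batches were separate cultures, so p-values measure only the spread between these libraries.

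The libraries held 2796693 to 8160386 gene counts in RNA-seq and 5302728 to 14340927 PASS reads (reads with an untemplated poly(A) end) in 3'READS. The RNA-seq level of each target was lowest under its own siRNA, for Paf1 20.3 and 31.1 CPM in siPaf1 cells against 107 and 160 in control cells. In siCdc73 cells Paf1 was higher than in the controls, at 264 and 418 CPM in RNA-seq. In 3'READS it had 41 and 35.8 CPM there against 19.5 and 16.8 in siCtrl. Of the myoblast markers, Des, Vim, Cdh15 and Myf5 were found in all 7 libraries of both assays, whereas Myod1 reached at most 0.529 CPM in 3'READS. Cdh15 was lower in every siPaf1 and siCdc73 library than in the control of its batch (RNA-seq 790 and 1015 CPM in siCtrl, 351 and 626 in siPaf1, 321 and 401 in siCdc73), and its part in the levels below was not tested. Myf5 and Des did not share this direction throughout. In RNA-seq Myf5 had 53.8 and 63.4 CPM in siCtrl, 52.8 and 47.1 in siPaf1 and 78.3 and 109 in siCdc73. Des had 697 and 1428 CPM in siCtrl, 1338 and 1978 in siPaf1 and 631 and 1104 in siCdc73. Markers of leukocytes, endothelium, epithelium and fat stayed at or below 1.29 CPM. The myotube genes Myh3 (12.8 to 168 CPM in 3'READS) and Tnnt3 (1.96 to 35.9 in RNA-seq) were highest in siPaf1 of batch 2. Acta1 (50.5 CPM) and Ckm (3.84 CPM) were also highest there in 3'READS. Myog was not, with 7.05 and 13.1 CPM in siCtrl, 6.84 and 8.33 in siPaf1, 2.17 and 4.19 in siCdc73 and 14.1 in siSki8. The part of these genes in the levels below was not tested. The siPaf1 library of batch 2 stood apart in 3'READS, where 260 genes lay over 20-fold above all other libraries and held 1.01% of its reads. None (0) of the 10 genes was among them, and 5 of their minor sites, with at most 8 reads each, were seen in that library alone. CPM here is the count scaled to library size by TMM in edgeR, and in these bulk samples fewer cells and less RNA per cell cannot be told apart.

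The 48 sites comprised 43 on the sense strand and 5 antisense ones upstream of the start. Of the sense sites, 32 were assigned to the 3'-most exon with 24391 reads in all, 8 to introns with 1434 reads and 3 to internal exons with 209 reads. Cstf1, Clp1 and Cstf2t each had 1 sense site. The site with the most 3'-most exon reads over all libraries carried AATAAA within the last 30 bases in 9 of 10 genes, Papolg being the exception, compared with 59.8% over the 14965 genes with such a site. The stretches below end at the last transcribed base and were read from mm9 on the transcribed strand, with AATAAA or ATTAAA in capitals. Both motifs were searched on that strand only. They are shown first for the upstream and terminal sites of Cstf3, Pcf11 and Papola, between which the isoforms were compared.
Cstf3, intron 3 of 20, chr2:104449557-104449586, + strand: tgcaacaacATTAAAacagtttcaatggtg
Cstf3, 3′UTR in exon 21, chr2:104505553-104505582, + strand: tttgaaaggAATAAAaggacctcaaaaaca
Pcf11, intron 1 of 15, first site, chr7:99816737-99816766, − strand: tctgactctAATAAAtggttttgaaatgtg
Pcf11, intron 1 of 15, second site, chr7:99816694-99816723, − strand: aaaatttgtgAATAAAacatataaaatatg
Pcf11, coding part of exon 8, chr7:99807116-99807145, − strand: aattaagccctagaattgatggacctccta
Pcf11, 3′UTR in exon 16, chr7:99792222-99792251, − strand: catacatgtAATAAActgaatgatgaacaa
Papola, intron 9 of 21, chr12:107047890-107047919, + strand: attacAATAAAattgattgtagacactgaa
Papola, 3′UTR in exon 22, chr12:107076892-107076921, + strand: tcagtttAATAAAcgttccatgtaactgca

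The Cstf3 intronic site used ATTAAA, as 14.4% of all intronic sites did without AATAAA, and its last base was the annotated end of the retained-intron transcript Cstf3-002. It lay 18906 bases from the transcription start site (TSS). The Pcf11 sites in intron 1 lay 1706 and 1749 bases from the TSS, and both carried AATAAA. The site in exon 8 had neither hexamer, as was the case for most internal exon sites, of which 28.9% carried one. The Papola intronic site lay 25015 bases from the TSS and was also the annotated end of 3 shorter transcripts (Papola-007, Papola-013 and Papola-016).

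The 2 main 3'-most exon sites of Cstf2 and Papolg and the main sites of the remaining genes are shown because the gene levels and the 3'UTR-APA ratios rest on them.
Cstf2, proximal, chrX:130618954-130618983, + strand: tctgtgacattaAATAAActttgaacacaa
Cstf2, distal, chrX:130621332-130621361, + strand: tcgtggattcAATAAAtattttaaaagtca
Papolg, proximal, chr11:23762648-23762677, − strand: catcttttcaaagagaaactttaaaacctt
Papolg, distal, chr11:23757945-23757974, − strand: atgAATAAAacatgtactgataatcataaa
Cstf1, chr2:172206552-172206581, + strand: ttgtcctggtAATAAAgctcagatctacaa
Cstf2t, chr19:31161053-31161082, + strand: gaaaattaAATAAAaaggttgtataattaa
Clp1, chr2:84563279-84563308, − strand: attattttAATAAAtatgattgtgatagaa
Pabpn1, chr14:55517732-55517761, + strand: tgtcatgAATAAAgttgttttatgaaaaaa
Xrn2, chr2:146903366-146903395, + strand: gtttttAATAAAactacagtactttgtgta
The proximal Papolg site took 75.2% of the gene's reads over all libraries and had neither hexamer, whereas its distal site, 4701 bases beyond the annotated end, carried AATAAA. In siCtrl of batch 1 the distal site took more, 65.8% against 31.5%. The Pabpn1 site lay 755 bases beyond the annotated end and the Cstf1 site 1367 bases short of the nearest one. The distal site of Cstf2 lay in sequence that Nox1 overlaps on the other strand, and Tcp11l1 and Prkg1 overlap the last exon of Cstf3 and the whole of the intronless Cstf2t in the same way. The locus Gm20521 overlaps upstream parts of Pabpn1 on the same strand, so minor Pabpn1 sites there are uncertain between the 2 names, but not its main site, with 233 of 312 reads.

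In RNA-seq, none (0) of the 5 listed genes passed edgeR's quasi-likelihood test in any knockdown at a Benjamini-Hochberg adjusted p under 0.05, as was true of all 6521 genes tested (0% called in each of the 3 comparisons). Unadjusted p-values fell under 0.05 for 1 of the 5 genes in siPaf1, 0 in siCdc73 and 1 in siSki8, and DESeq2 also called 0. The share of all features at an unadjusted p under 0.05 is not given here. Counts at that threshold, also those below, therefore show no excess for the members. The labels give each library a batch and samples of 1 batch deviated together, so the same test was run with the batch as a block. It called 2 of 5 genes in siPaf1 cells (1 higher, 1 lower, with 32.5% of all genes called), 4 of 5 in siCdc73 cells (2 higher, 2 lower, with 39.9% called) and 1 of 5 in siSki8 cells (higher, with 5.43% called). With 5 genes and shares of this size, the counts say little about these genes as a group. The median log2 fold change of the 5 genes with the block was -0.18 in siPaf1, 0.30 in siCdc73 and 0.56 in siSki8 cells, beside 0.02, -0.02 and 0.02 over all genes.

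In 3'READS, with the reads of all sense sites summed per gene, none (0) of the 10 genes passed without the block, again with 0% of 12579 genes called in each comparison. Unadjusted p-values under 0.05 numbered 2 in siPaf1, 1 in siCdc73 and 1 in siSki8, and DESeq2 called 0. With the block, edgeR called 1 of 10 genes in siPaf1 cells (18.8% of all genes), 3 of 10 in siCdc73 cells (22.5%) and 0 of 10 in siSki8 cells (0.151%). All 4 of these calls were toward higher levels. In siSki8, 2 of the 10 had an unadjusted p under 0.05, a looser threshold than that of these shares. Over all genes, 1225 were called higher and 1142 lower in siPaf1, and 1353 higher and 1479 lower in siCdc73. The siPaf1 call was Cstf3, whose sign turned on the reads of the 3'-most exon alone, as given below. The median log2 fold change of the 10 genes with the block was 0.19, 0.52 and 0.54 in the 3 knockdowns, beside 0.08, -0.02 and -0.05 over all genes.

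**Figure D1:**
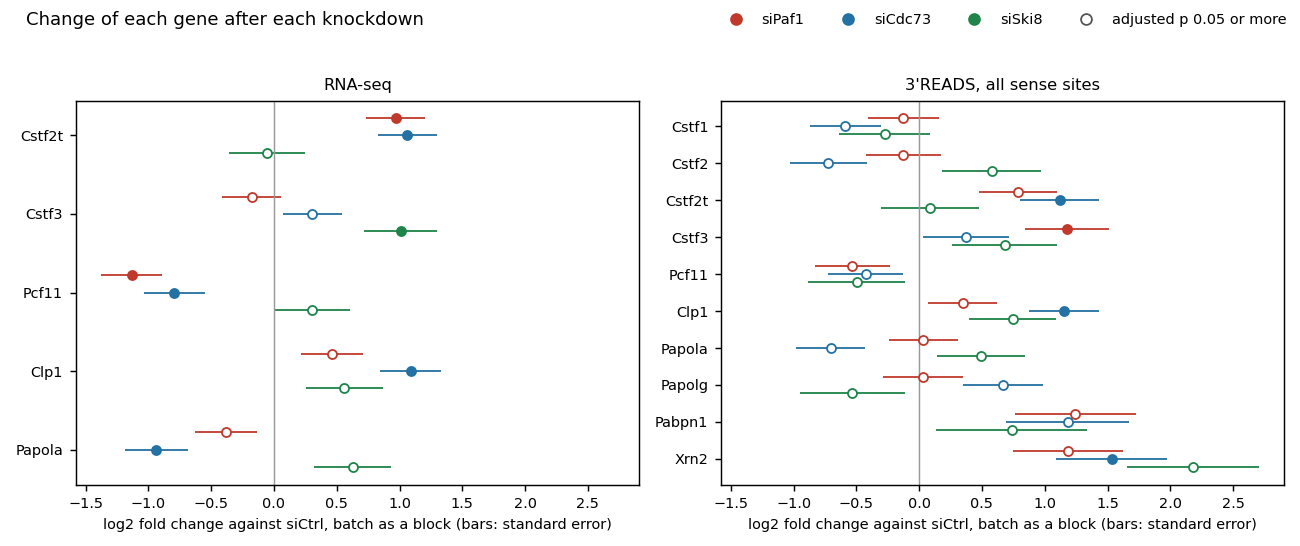
Log2 fold changes against siCtrl (x axis) with the batch as a block, for the 5 genes listed in RNA-seq (left) and all 10 genes in 3'READS (right); bars are standard errors, colours are knockdowns and filled points have an edgeR adjusted p under 0.05. Pcf11 lay at -1.13 in siPaf1 RNA-seq and Xrn2 in siSki8 3'READS, an open point, at 2.18.

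Of the CstF genes, Cstf2t and Cstf3 rose in some comparisons with the block, and Cstf1 and Cstf2 passed in none. Cstf1 encodes a WD-repeat subunit and was the most abundant of the 10 genes in control 3'READS. In siCtrl of batch 1 and batch 2, the order kept below, it measured 102 and 201 CPM, with 103 and 170 in siPaf1, 89.7 and 101 in siCdc73 and 148 in siSki8. The siCdc73 libraries lay below both controls, but by little in batch 1, and no comparison passed.

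Cstf2 encodes the RNA-binding subunit, and Cstf2t is its intronless paralogue. Cstf2 stood at 50.4 and 11.1 CPM in siCtrl, 39.9 and 12.1 in siPaf1, 23.5 and 8.87 in siCdc73 and 19.3 in siSki8. The batches differed more than any knockdown did from its own control, with a difference of batch 2 minus batch 1 of -2.17 on the log2 scale in siCtrl. With the block, siCdc73 gave a log2 fold change of -0.72 (SE 0.31, edgeR adjusted p = 0.108).

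Cstf2t had 7.95 and 22.1 CPM in control 3'READS, 19.0 and 29.2 in siPaf1, 21.3 and 41.4 in siCdc73 and 20.5 in siSki8. Each siPaf1 and siCdc73 library lay above the control of its batch, and siSki8 lay just below its own. In siCdc73 cells the level rose in the test with the block (log2 fold change 1.12, SE 0.31, edgeR adjusted p = 0.0178), and it did not pass without it (1.06, adjusted p = 0.464). That call was lost without siCtrl of batch 1 (adjusted p = 0.222), siCdc73 of batch 1 (0.0524) or siCdc73 of batch 2 (0.0889). The siPaf1 value with the block was 0.79 (SE 0.31, adjusted p = 0.0901).

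In RNA-seq, Cstf2t was listed at 107 and 58.5 CPM in siCtrl, 204 and 118 in siPaf1, 219 and 125 in siCdc73 and 57.5 in siSki8. The siPaf1 and siCdc73 libraries all lay above both controls. With the block the log2 fold change was 0.97 in siPaf1 (SE 0.23, edgeR adjusted p = 0.00189, and 0.367 without the block) and 1.06 in siCdc73 (SE 0.23, adjusted p = 0.000583, and 0.267 without the block). The log2 differences were similar in both batches, at 0.92 and 1.01 in siPaf1 cells and 1.03 and 1.09 in siCdc73 cells. The siPaf1 call was lost without siCtrl of batch 2 (adjusted p = 0.0704), whereas the siCdc73 call passed with any 1 of the 6 replicated libraries left out. The RNA-seq counts of Prkg1, the gene on the opposite strand around Cstf2t, equalled the Cstf2t counts plus 2 to 46 reads, so that Cstf2t made up 93.4% to 99.7% of them. Which of the 2 genes these reads came from cannot be told from the table. In 3'READS, which keeps the strand, Cstf2t had 53 to 583 reads per library and Prkg1 5 to 70.

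Cstf3 encodes the scaffold subunit that holds CstF together. In RNA-seq it stood at 192 and 217 CPM in siCtrl, 209 and 151 in siPaf1, 229 and 276 in siCdc73 and 411 in siSki8. The siSki8 library was the highest, with a log2 fold change of 1.01 (SE 0.29, edgeR adjusted p = 0.041 with the block and 0.782 without it). The call was lost without siCtrl of batch 1 or batch 2 or siCdc73 of batch 1 or batch 2. With any 1 of the replicated libraries left out, log2 lay between 0.86 and 1.19. The single siSki8 library was kept in each of these fits, so this range does not measure its own spread.

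In 3'READS, Cstf3 had 7.95 and 11.6 CPM in siCtrl, 22.8 and 20.6 in siPaf1, 9.55 and 15.8 in siCdc73 and 17.5 in siSki8. Both siPaf1 libraries lay above all other libraries. With the block the siPaf1 level rose by a log2 fold change of 1.18 (SE 0.34, edgeR adjusted p = 0.0231, and 0.338 without the block). These reads include the intronic site, and with the reads of the 3'-most exon alone the sign turned (log2 fold change -0.32, SE 0.52, adjusted p = 0.706 with the block). The call with all sites was also lost without siCtrl of batch 1 (adjusted p = 0.151), siCtrl of batch 2 (0.0978) or siPaf1 of batch 1 (0.157).

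**Figure D2:**
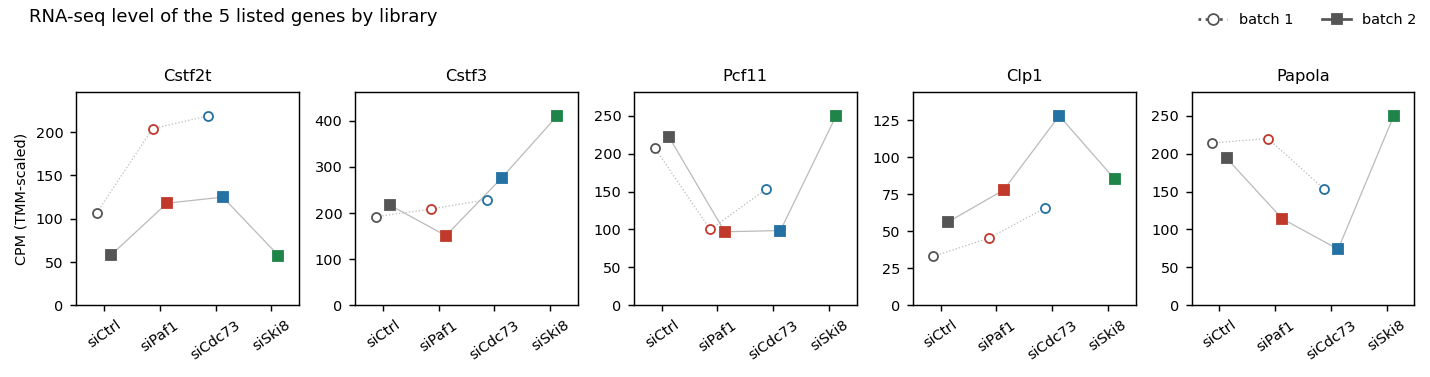
RNA-seq level of each listed gene (y axis, CPM after TMM scaling, from 0) in each library, by siRNA (x axis), with open circles for batch 1, filled squares for batch 2 and lines joining libraries of a batch. Pcf11 was lowest in siPaf1 and siCdc73 cells, at 97.0 to 153 CPM against 208 and 222 in the controls.

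Of the 2 subunits of cleavage factor II, Pcf11 fell and Clp1 rose in siCdc73 RNA-seq with the block. Pcf11 binds the C-terminal domain of RNA polymerase II. In RNA-seq it stood at 208 and 222 CPM in siCtrl, 100 and 97.0 in siPaf1, 153 and 98.6 in siCdc73 and 250 in siSki8. All 4 siPaf1 and siCdc73 libraries lay below both controls, and the siSki8 library above them. In siPaf1 cells the log2 fold change was -1.13 with the block (SE 0.24, edgeR adjusted p = 0.000597) and -1.12 without it (adjusted p = 0.180). In siCdc73 cells it was -0.79 with the block (SE 0.24, adjusted p = 0.0094) and -0.77 without it (adjusted p = 0.261). Within batches the differences were -1.05 and -1.19 in siPaf1 and -0.44 and -1.17 in siCdc73. The siPaf1 call was lost without siCtrl of batch 2 (log2 -0.90, adjusted p = 0.0709). The siCdc73 call was lost without siCtrl of batch 2 (-0.58, adjusted p = 0.221) or siCdc73 of batch 2 (-0.48, adjusted p = 0.402).

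In 3'READS with all sites summed, Pcf11 had 24.8 and 24.6 CPM in siCtrl, 15.0 and 19.3 in siPaf1, 16.7 and 20.2 in siCdc73 and 18.8 in siSki8. The knockdown libraries lay below both controls, and no comparison passed (log2 fold changes with the block of -0.53, -0.42 and -0.50). The reads of the 3'-most exon alone numbered 136 and 236 in siCtrl, 68 and 161 in siPaf1, 38 and 150 in siCdc73 and 138 in siSki8. On these reads, an alternative added after the data had been seen, the test with the block passed in siPaf1 (log2 fold change -1.10, SE 0.32, edgeR adjusted p = 0.0252) and in siCdc73 (-1.12, SE 0.33, adjusted p = 0.0219) and not in siSki8 (-0.58, adjusted p = 0.667).

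Clp1 is an RNA kinase that pairs with Pcf11. In RNA-seq it stood at 33.1 and 56.2 CPM in siCtrl, 45.4 and 77.8 in siPaf1, 65.6 and 128 in siCdc73 and 85.0 in siSki8. In 3'READS it stood at 33.6 and 60.6 CPM in siCtrl, 46.3 and 70.6 in siPaf1, 67.3 and 148 in siCdc73 and 102 in siSki8. In both assays each knockdown library lay above the control of its own batch, and both siCdc73 libraries lay above both controls. With the block, siCdc73 gave a log2 fold change of 1.09 in RNA-seq (SE 0.25, edgeR adjusted p = 0.000762, and 0.254 without the block) and 1.16 in 3'READS (SE 0.28, adjusted p = 0.0075, and 0.364 without the block). In siSki8 3'READS the value with the block was 0.74 (SE 0.35, adjusted p = 0.422). The RNA-seq call passed with any 1 of the 6 replicated libraries left out, with an adjusted p of at most 0.0485. The 3'READS call was lost without siCtrl of batch 2 (adjusted p = 0.079) or siCdc73 of batch 2 (0.135).

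Of the poly(A) polymerases, Papola fell in siCdc73 RNA-seq with the block and Papolg passed in no comparison. Papola, the main nuclear enzyme, stood at 214 and 194 CPM in RNA-seq of siCtrl, 220 and 114 in siPaf1, 154 and 74.0 in siCdc73 and 250 in siSki8. Both siCdc73 libraries lay below both controls, while siPaf1 lay below its control in batch 2 only. With the block the siCdc73 log2 fold change was -0.94 (SE 0.25, edgeR adjusted p = 0.00344, and 0.361 without the block). The within-batch differences of -0.47 and -1.38 were unequal, and the call was lost without siCtrl of batch 2 (log2 -0.50, adjusted p = 0.304) or siCdc73 of batch 2 (-0.68, adjusted p = 0.211). The siSki8 value in RNA-seq with the block was 0.63 (SE 0.30, adjusted p = 0.237). In 3'READS, Papola had 56.3 and 42.7 CPM in siCtrl, 51.5 and 49.0 in siPaf1, 29.7 and 30.2 in siCdc73 and 65.8 in siSki8. Again siCdc73 lay below both controls, with a log2 fold change of -0.71 (SE 0.28, adjusted p = 0.0814 with the block).

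Papolg encodes neo-PAP, a second nuclear poly(A) polymerase. It had 16.7 and 23.9 CPM in siCtrl 3'READS, 17.7 and 23.3 in siPaf1, 18.9 and 49.4 in siCdc73 and 18.0 in siSki8. Only the siCdc73 library of batch 2 stood far from its control, and no comparison passed.

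**Figure D3:**
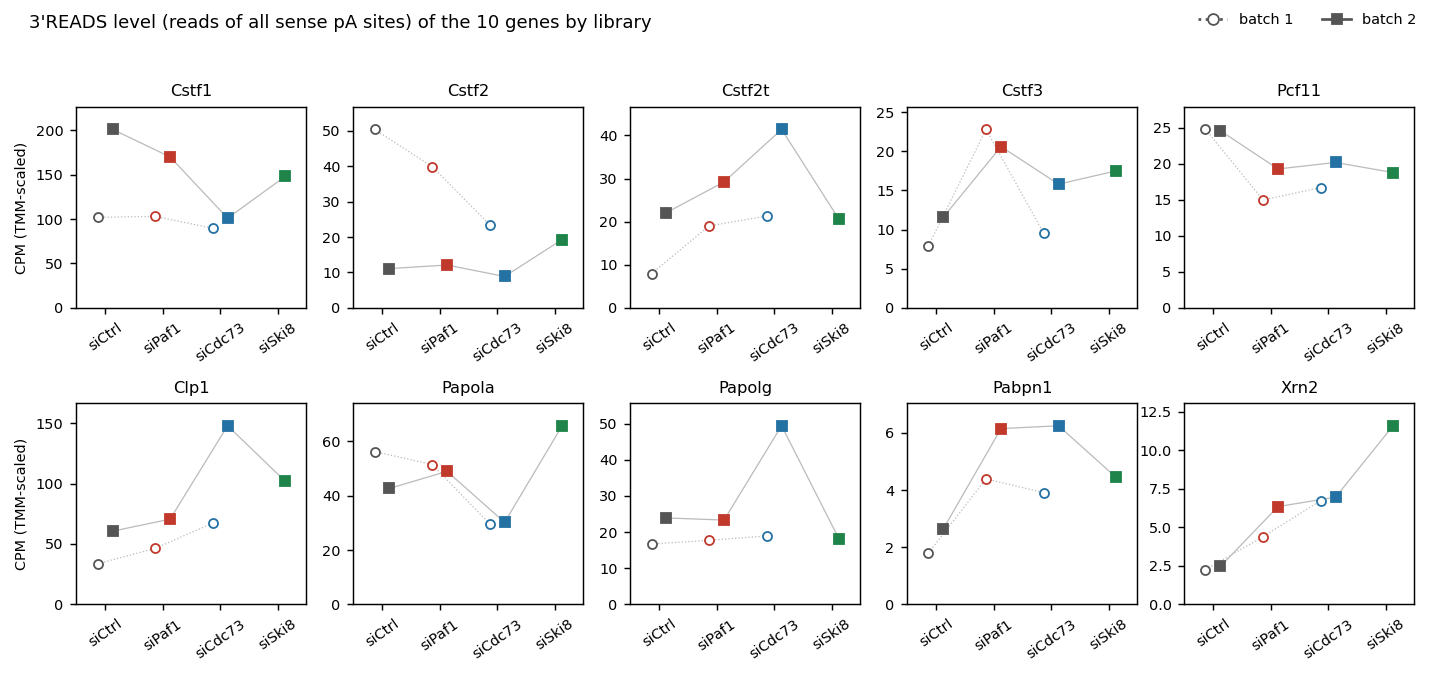
Level of the 10 genes in 3'READS (y axis, CPM of the reads of all sense pA sites, from 0) in each library, by siRNA (x axis), with open circles for batch 1 and filled squares for batch 2. Xrn2 was lowest in the controls (2.25 and 2.46 CPM) and highest in siSki8 (11.6 CPM), and Cstf2 separated by batch.

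Pabpn1 coats the new tail and stimulates poly(A) polymerase, and Xrn2 follows the polymerase after cleavage. They had the lowest control levels of the 10 genes. Pabpn1 had 1.80 and 2.65 CPM in siCtrl, 4.39 and 6.15 in siPaf1, 3.91 and 6.25 in siCdc73 and 4.44 in siSki8, and all 5 knockdown libraries lay above both controls. The log2 fold change with the block was 1.24 in siPaf1 (SE 0.48, edgeR adjusted p = 0.0831) and 1.18 in siCdc73 (SE 0.49, adjusted p = 0.0964), so neither passed. A minor Pabpn1 site in coding exon 5 had 0 reads in both controls and in siSki8, 9 and 2 in siPaf1 and 8 and 6 in siCdc73. It had neither hexamer, 10 A among the next 20 genomic bases and Gm20521 overlapping it, so it is doubtful as a pA site of Pabpn1. The deposited classes count it with the 3'-most exon. With 12 and 28 reads of the gene in the controls and 39 in siSki8, 0 reads allow a share of up to 25%, 10.7% and 7.69% at 3 counts, while siPaf1 of batch 2 had 2.15%.

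Xrn2 had 2.25 and 2.46 CPM in siCtrl, 4.39 and 6.35 in siPaf1, 6.73 and 6.96 in siCdc73 and 11.6 in siSki8. All knockdown libraries lay above both controls, which differed by 0.12 on the log2 scale. In siCdc73 cells the level rose in the test with the block (log2 fold change 1.53, SE 0.44, edgeR adjusted p = 0.0211, and 0.215 without the block). The main site had 15 and 26 reads in the controls, and the call was lost without siCtrl of batch 1 (adjusted p = 0.0779) or 2 (0.175) or siCdc73 of batch 1 (0.104) or 2 (0.0692). In siPaf1 cells the value was 1.19 (SE 0.44, adjusted p = 0.0705). In siSki8 cells, with a single library, it was 2.18 (SE 0.53, adjusted p = 0.0984) and did not pass. With any 1 of the replicated libraries left out, the log2 fold change lay between 2.069 and 2.255. The single siSki8 library was kept in each of these fits, so this range does not measure its own spread.

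The use of intronic and internal exon sites relative to the 3'-most exon (CDS-APA) was tested in the 3 genes with enough reads, without sites that held less than 5% of their gene's reads. Without the block none (0) of the 3 passed, against 2.38% of 1766 genes in siPaf1, 4.13% in siCdc73 and 0% in siSki8. An unadjusted p under 0.05, a looser threshold than that of these shares, was found for 2, 1 and 0 of the 3 genes. With the block Cstf3 and Pcf11 passed in siPaf1 (2 of 3, beside 23.0% of all genes), Pcf11 passed in siCdc73 (1 of 3, beside 23.2%) and 0 of 3 passed in siSki8 (0.113% of all genes). DESeq2 was not run on isoform ratios.

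The Cstf3 intronic site, printed above with ATTAAA, took 61.5% of the gene's 1084 reads over all libraries, but fewer than the terminal site in both controls, in siCdc73 of batch 2 and in siSki8. The intronic site had 18 and 60 reads in siCtrl, 135 and 258 in siPaf1, 28 and 109 in siCdc73 and 59 in siSki8. The terminal site had 32 and 62 reads in siCtrl, 39 and 43 in siPaf1, 12 and 113 in siCdc73 and 89 in siSki8. The upstream share was 36% (95% Wilson interval 24.1 to 49.9) and 49.2% (40.5 to 57.9) in siCtrl and 77.6% (70.8 to 83.2) and 85.7% (81.3 to 89.2) in siPaf1. It was 70.0% (54.6 to 81.9) and 49.1% (42.6 to 55.6) in siCdc73 and 39.9% (32.3 to 47.9) in siSki8. Both siPaf1 libraries lay above all others, the siCdc73 batches disagreed, and siSki8 lay between the controls. These intervals cover counting error only.

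The log2 change of the ratio in siPaf1 was 2.59 with the block (SE 0.77, edgeR adjusted p = 0.0057) and 2.61 without it (SE 0.95, adjusted p = 0.158). The 2 batches gave 2.59 and 2.62. The call was lost without siCtrl of batch 1 (2.16, adjusted p = 0.119), without siPaf1 of batch 2 (2.05, adjusted p = 0.272) or when all sites were kept (2.44, adjusted p = 0.139). In siCdc73 the batches gave 2.00 and -0.0048 (fit with the block 0.85, SE 0.78, adjusted p = 0.495). In RNA-seq the short RefSeq transcript NM_177253 had 3.50% and 4.11% of the reads of the long transcript in siCtrl, 6.47% and 9.45% in siPaf1, 3.72% and 3.01% in siCdc73 and 2.20% in siSki8. The shorter NM_001037326 had 1.17% and 1.47% in siCtrl, 2.82% and 5.30% in siPaf1, 1.29% and 1.62% in siCdc73 and 0.744% in siSki8. For both short transcripts siPaf1 was highest. Transcripts of a gene share reads in this table, and these shares were not tested. By the paper, coding-region reads alone were counted for protein-coding genes in RNA-seq.

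Pcf11 had 2 upstream sites above the cutoff, in intron 1 and in coding exon 8. Their summed share was 15.8% (95% Wilson interval 10.9 to 22.3) and 9.45% (6.43 to 13.7) in siCtrl, 41.3% (32.5 to 50.7) and 41.4% (35.7 to 47.3) in siPaf1, 50.7% (39.6 to 61.7) and 43.8% (37.9 to 49.8) in siCdc73 and 14.0% (9.44 to 20.3) in siSki8. All 4 siPaf1 and siCdc73 libraries lay above both controls, and siSki8 lay between the controls. The log2 change of the ratio with the block was 2.34 in siPaf1 (SE 0.71, edgeR adjusted p = 0.0075) and 2.67 in siCdc73 (SE 0.72, adjusted p = 0.002), and it was 0.42 in siSki8 (SE 0.95, adjusted p = 1). Without the block the siPaf1 and siCdc73 values were 2.33 (adjusted p = 0.163) and 2.66 (adjusted p = 0.117). The siPaf1 call was lost without siCtrl of batch 2 (adjusted p = 0.208), siPaf1 of batch 2 (0.210) or with all sites kept (0.125), and the siCdc73 call without siCtrl of batch 2 (0.112), siCdc73 of batch 2 (0.0524) or with all sites kept (0.0593).

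The second site of Pcf11 intron 1, whose last base is 99816694, had 15 and 8 reads in siCtrl, 27 and 39 in siPaf1, 29 and 62 in siCdc73 and 3 in siSki8. The first site of that intron had 4 and 0 reads in siCtrl, 3 and 18 in siPaf1, 1 and 18 in siCdc73 and 5 in siSki8. The exon 8 site, without a hexamer, had 10 and 16 reads in siCtrl, 18 and 74 in siPaf1, 9 and 54 in siCdc73 and 19 in siSki8. The terminal site had 128 and 213 reads in siCtrl, 62 and 154 in siPaf1, 35 and 122 in siCdc73 and 115 in siSki8. At the second intronic site siPaf1 and siCdc73 lay above both controls in reads, although at the terminal site they lay below the control of their own batch.

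When each site was tested against all other reads of its gene, 22 sites of 6 genes could be tested. The reads of a site also count against the other sites of its gene. A rise at 1 site and a fall at another of the same gene are therefore not separate results. Without the block 0 passed, as for all 19730 sites (0% in each knockdown), with 3, 3 and 0 of the 22 at an unadjusted p under 0.05 in siPaf1, siCdc73 and siSki8. With the block 1 passed in siCdc73 (5.69% of all sites), 0 in siPaf1 (6.10%) and 0 in siSki8 (0.0101%). Unadjusted p-values under 0.05 numbered 6, 4 and 0 of the 22 in siPaf1, siCdc73 and siSki8. That threshold is looser than the one behind these shares. The site that passed was the second one in Pcf11 intron 1, with a log2 change of 2.84 (SE 0.77, edgeR adjusted p = 0.0248, and 0.478 without the block). Leaving out siCtrl of batch 1 (adjusted p = 0.137) or 2 (0.357) or siCdc73 of batch 1 (0.124) or 2 (0.183) ended that call. Its siPaf1 value was 1.92 (SE 0.77, adjusted p = 0.151), and the exon 8 site gave 1.97 in siPaf1 (SE 0.77, adjusted p = 0.136). The Pcf11 terminal site gave -1.81 in siPaf1 (SE 0.71, adjusted p = 0.139) and -2.33 in siCdc73 (SE 0.72, adjusted p = 0.0526). In siPaf1 the Cstf3 intronic site gave 2.47 (SE 0.81, adjusted p = 0.0661) and its terminal site -2.52 (SE 0.83, adjusted p = 0.0656).

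**Figure D4:**
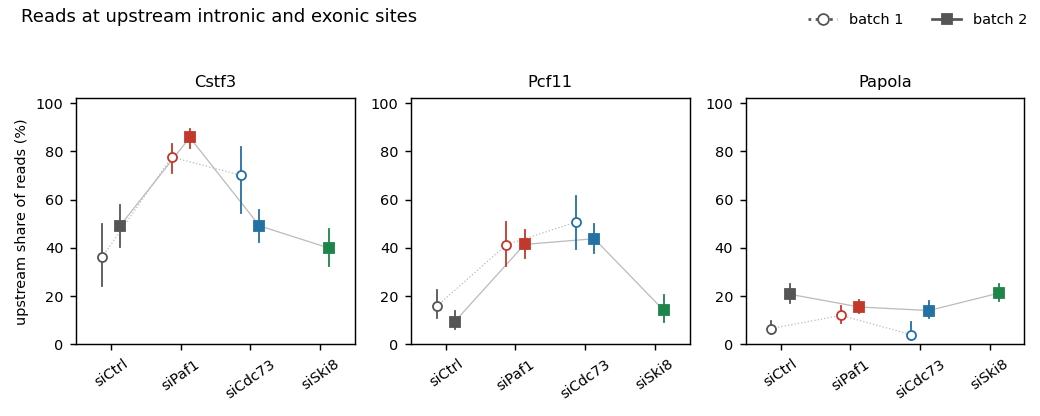
Share of reads at intronic and internal exon sites (y axis, percent of upstream plus 3'-most exon reads) for Cstf3, Pcf11 and Papola in each library, by siRNA (x axis), with 95% Wilson intervals as bars and open circles for batch 1, filled squares for batch 2. Pcf11 lay at 41.3% to 50.7% in siPaf1 and siCdc73 and at 9.45% to 15.8% in the other libraries, and Papola followed the batches.

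Papola kept most of its reads at the terminal site, with 77.6% of 3108 reads there and 13.8% in intron 9. Its upstream share was 6.55% and 20.8% in siCtrl, 12.0% and 15.5% in siPaf1, 4.03% and 14.0% in siCdc73 and 21.2% in siSki8. The siPaf1 libraries lay between the controls, and batch 2 lay above batch 1 under siCtrl, siPaf1 and siCdc73, the siRNAs sequenced in both. The log2 change with the block was 0.17 in siPaf1 (SE 0.60), -0.63 in siCdc73 (SE 0.65) and 0.29 in siSki8 (SE 0.76), and none passed. Cstf3 and Pcf11 differed from Papola here in their calls, and the difference between genes was not tested.

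The choice between the 2 main sites of the 3'-most exon (3'UTR-APA) could be tested in Cstf2, Papolg, Pcf11 and Pabpn1. None (0) of the 4 passed in edgeR, with or without the block, in any knockdown. Without the block 0% of 4567 genes were called, and with it 6.79% in siPaf1, 4.29% in siCdc73 and 0.307% in siSki8. At an unadjusted p under 0.05 there were 0 without the block and, with it, 1 in siPaf1 (Papolg).

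The 2 Cstf2 sites lie 2378 bases apart. The proximal share was 15.8% (95% Wilson interval 12.3 to 20.1) and 63.2% (54.2 to 71.4) in siCtrl, 19.7% and 73.8% in siPaf1, 27.8% and 72.8% in siCdc73 and 72.9% in siSki8. All 3 batch 1 libraries lay below all 4 batch 2 libraries, the intervals of the 2 controls did not overlap, and each knockdown lay above the control of its batch. The log2 changes with the block were 0.55 in siPaf1 (SE 0.61), 0.83 in siCdc73 (SE 0.63) and 0.66 in siSki8 (SE 0.80).

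The 2 Papolg sites lie 4703 bases apart, and the proximal share was 32.4% (95% Wilson interval 24.3 to 41.7) and 84.4% (79.3 to 88.4) in siCtrl, 66.1% (57.6 to 73.8) and 90.4% (86.8 to 93.1) in siPaf1, 56.8% and 80.3% in siCdc73 and 88.9% in siSki8. Here too batch 2 lay above batch 1 under siCtrl, siPaf1 and siCdc73, the siRNAs sequenced in both. The siPaf1 value with the block was 1.39 (SE 0.63, edgeR adjusted p = 0.204), with 2.01 in batch 1 and 0.80 in batch 2.

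The Pcf11 pair lies 545 bases apart, with a proximal share of 3.76% and 7.39% in siCtrl, 3.12% and 3.75% in siPaf1, 5.41% and 18.1% in siCdc73 and 14.8% in siSki8. The Pabpn1 pair lies 40 bases apart and rests on 7 to 82 reads per library. Its proximal site had 0 of 12 reads in siCtrl of batch 1, which allows a share of up to 25% at 3 counts, and 4 of 28 in batch 2. The siPaf1 libraries had 8 of 21 and 15 of 82, the siCdc73 libraries 4 of 7 and 2 of 78, and siSki8 1 of 39. No order can be read from so few reads.

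**Figure D5:**
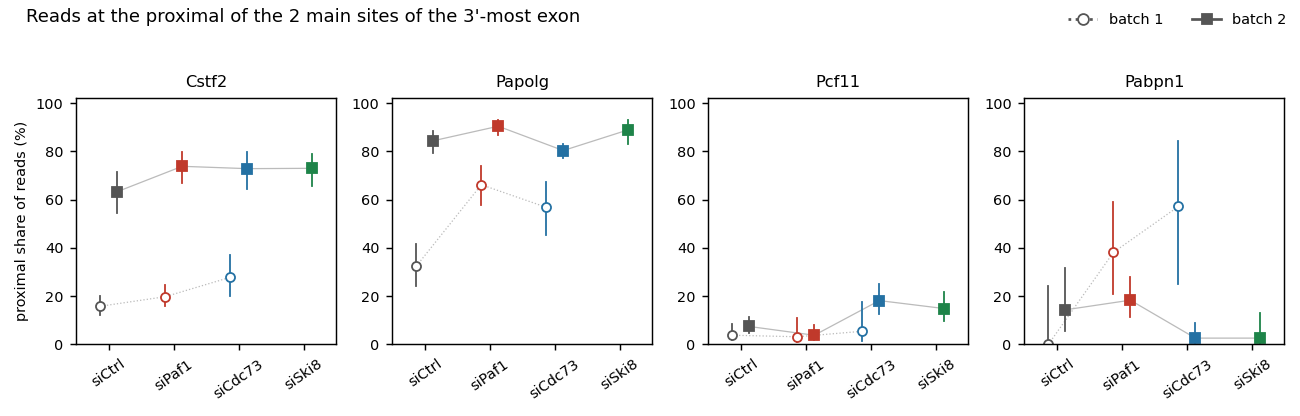
Share of reads at the proximal of the 2 main 3'-most exon sites (y axis, percent) for Cstf2, Papolg, Pcf11 and Pabpn1 in each library, by siRNA (x axis), with 95% Wilson intervals as bars and open circles for batch 1, filled squares for batch 2. For Cstf2 the batch 1 libraries lay at 15.8% to 27.8% and the batch 2 libraries at 63.2% to 73.8%.

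Of the other genes of 3′ end formation, 12 that encode CPSF, CFIm and associated factors were examined in 3'READS and 7 of them in RNA-seq. Without the block 0 passed in edgeR in any comparison, and at most 3 had an unadjusted p below 0.05. With the block, 1 rose (Sympk, a scaffold, log2 fold change 0.67, SE 0.22) and 0 fell in siPaf1 RNA-seq, and 0 rose and 2 fell in siCdc73 RNA-seq (Cpsf3, the endonuclease, -1.21, SE 0.23, and the phosphatase Ssu72, -0.83, SE 0.24). In 3'READS of siPaf1 cells 1 rose (Rbbp6, a CPSF-associated factor, 1.09, SE 0.30) and 1 fell (Wdr33, which contacts the hexamer, -0.95, SE 0.27). In 3'READS of siCdc73 cells 2 rose (Rbbp6, 1.47, and the CFIm subunit Cpsf6, 0.82) and 3 fell (Cpsf2, a CPSF subunit, -1.89, Ssu72, -1.20, and Cpsf3, -0.91). None (0) passed in siSki8. These counts, and those of the lists that follow, stand beside the shares of all genes called with the block, 32.5% and 39.9% in RNA-seq and 18.8% and 22.5% in 3'READS of siPaf1 and siCdc73. The median of the list with the block in siCdc73 was -0.16 in RNA-seq and -0.39 in 3'READS, beside -0.02 over all genes in each.

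Among 14 genes of tail binding, extension and removal, 12 of which were tested in RNA-seq, 0 passed in edgeR without the block, with at most 2 at an unadjusted p below 0.05. With it, Cnot7, a deadenylase of the CCR4-NOT complex, rose in siPaf1 (log2 fold change 0.71 in RNA-seq and 1.88 in 3'READS) and in siCdc73 (0.88 and 1.78). Parn, another deadenylase, and Cnot1, the CCR4-NOT scaffold, fell in siPaf1 RNA-seq (-0.87 and -0.55), Pan2 fell in siCdc73 RNA-seq (-0.65) and Cnot6l in siCdc73 3'READS (-1.02). The medians of this list with the block were -0.16 and 0.11 in RNA-seq and 0.30 and 0.24 in 3'READS of siPaf1 and siCdc73 cells, and 0 passed in siSki8. Among 10 genes linked to termination, 4 of which were tested in RNA-seq, 0 passed without the block and 0 had an unadjusted p below 0.05. With it Rprd1a, which binds the polymerase's C-terminal domain, rose in siCdc73 (0.80) and siSki8 RNA-seq (1.24), Cdkn2aip rose in siCdc73 RNA-seq (0.64), and Ttf2 fell in siPaf1 and siCdc73 3'READS (-1.74 and -1.69). The medians of this list with the block were 0.02 and 0.48 in RNA-seq and 0.33 and 0.41 in 3'READS of siPaf1 and siCdc73 cells.

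Per length, by the authors' RPKM values, Cstf3 (35.8 and 38.4 in siCtrl) and Papola (38.8 and 33.2) had the highest levels of the 5 genes listed in RNA-seq. Cstf2t followed at 22.8 and 11.7, Pcf11 at 17.9 and 18.2 and Clp1 at 10.4 and 16.7. Cstf3 and Papola could not be ranked, since their order changed with the batch, and neither could the order among the last 3 genes beyond Pcf11 over Clp1. The gene whose log2 CPM over the 7 RNA-seq libraries was most like that of each member, among 6520 genes, was Prkg1 for Cstf2t (Pearson r 0.999, from the shared counts given above), Gspt1 for Cstf3 (0.982), C330027C09Rik for Pcf11 (0.991), H13 for Clp1 (0.993) and Acaca for Papola (0.994). Each was picked as the highest of many genes over libraries that share batches and siRNAs, and the values are descriptive.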

How the data were processed

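The members and gene lists were chosen with earlier results of these data known. RNA-seq and 3'READS were analysed in 7 libraries each, grouped by the labels. The authors mapped both with Bowtie2 to mm9 and deposited RNA-seq counts per RefSeq transcript, with no normalization. Beside them stand RPKM values that the authors scaled by length and mapped reads. By the paper, protein-coding genes were counted by their coding-region reads alone, so these RNA-seq levels leave out reads in the 3'UTR. The authors deposited 3'READS as counts of PASS reads per pA site, not normalized, after removing internally primed reads. Tool versions are not given in the sources used here. The RNA-seq table lists counts of genes on opposite strands at Cstf2t that nearly coincide, so such genes are uncertain there.

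Each gene was taken by its transcript with the highest mean RNA-seq count, or by the sum of its sense sites. Counts were tested in R 4.3.3 with edgeR 4.0.16 (TMM, filter on low counts, prior count 2 for log2 values, quasi-likelihood test, Benjamini-Hochberg adjustment over all features, threshold 0.05), with all 7 libraries in 1 fit and no batch term. With all libraries in 1 fit, siSki8 borrowed its spread from the other groups. The study itself called genes by a fold of RPKM with Fisher's exact test, and states no batch term. It called APA events by a method it names Significance Analysis of Alternative Polyadenylation. Repeated sampling of equal read numbers served there to compare the extent of APA between samples. Site and isoform ratios were tested as an isoform by knockdown interaction with 1 coefficient per library, for genes that averaged 20 or more reads in a library, and single sites needed 20 reads with at least 140 elsewhere in the gene. Within-batch ratios were taken after adding 0.5 to each side.

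The batch numbers pair the libraries by the labels. The batch difference of 1 group followed that of another across genes, with Pearson r of 0.620, 0.748 and 0.633 in RNA-seq, 0.433, 0.610 and 0.432 in 3'READS, 0.362 to 0.414 for CDS-APA and 0.478 to 0.561 for 3'UTR-APA. The batch as a block was therefore fitted too and is given where it changed a call. Other alternatives were DESeq2 1.42.0, other scalings, filters and transcripts, pooled reads with Fisher's exact test, and leaving out each library. Tests on simulated data were run with the same code. Sites were annotated with NCBIM37 (mm9) and GENCODE M1. Python 3.11.15 was used for tables, sequences and figures. All members are named. Single sites are named where they are the main 3'-most exon site, an upstream site of at least 20 reads or past a test. The 3'UTR-APA pairs, a minor Pabpn1 site and a Papola antisense site are given as well. Genes outside the members come from the 3 lists, at most 3 per list, direction and comparison. No pair of libraries (0) held identical values. ChIP-seq was not analysed here.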

Additional observations from a re-analysis of the deposited data

Results flagged for a closer look

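Reads antisense to Papola, at a site 566 bases upstream of its annotated start, were found in 3 knockdown libraries and not in the controls. This site has no place in the gene levels or ratios above. It had 0 reads in both siCtrl libraries, 0 and 44 in siPaf1, 6 and 26 in siCdc73 and 0 in siSki8. The value differed between the siPaf1 batches, and the site was not tested. The 30 bases to its last base, on the − strand, carried AATAAA.
Papola, upstream antisense, chr12:107022338-107022367, − strand: caataatttAATAAAattgacagtaacctt
Over all genes, antisense sites took 0.160% and 0.138% of the reads of the siCtrl libraries, 0.174% and 0.203% in siPaf1, 0.225% and 0.205% in siCdc73 and 0.141% in siSki8.

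Reads antisense to Xrn2 stood above the level of 1 read in each control library in siPaf1 of batch 2 (4 reads) and siCdc73 of batch 1 (4 reads), with 3 reads in siCdc73 of batch 2. With so few reads no difference can be shown at this depth.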

How the results depend on the processing

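Without the block, 0 genes or sites passed with each replicated library left out, and DESeq2, other scalings and filters left these counts at 0. The block moved the number past the threshold to 2, 4 and 1 of 5 in RNA-seq (siPaf1, siCdc73, siSki8, the order kept here), 1, 3 and 0 of 10 in 3'READS, 0, 1 and 0 of 22 sites and 2, 1 and 0 of 3 in CDS-APA, and left 3'UTR-APA at 0. The longest transcript with the block also gave 2, 4 and 1, and 3'-most exon reads alone with the block 1 and 4 (siPaf1, siCdc73). With all sites kept and the block, CDS-APA calls dropped to 0 in siPaf1 and 0 in siCdc73. Fisher's exact test on pooled reads, which ignores the spread between libraries, gave 2, 4 and 3 in RNA-seq, 4, 8 and 5 in 3'READS, 12, 9 and 8 sites, 2, 1 and 1 in CDS-APA and 2, 3 and 3 in 3'UTR-APA. The shares of all genes or sites called under these alternatives, and with libraries left out, are not given here. Without them such counts show only how the calls move with the processing and say nothing about the members as a group.

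With the block and 1 library left out, counts ranged over 0 to 2, 2 to 4 and 0 to 1 in RNA-seq, 0 to 2, 0 to 6 and 0 to 1 in 3'READS, 0 to 2, 0 to 2 and 0 to 0 for sites, and 0 to 2, 0 to 1 and 0 to 0 in CDS-APA. Directions turned for Papola in siSki8 RNA-seq (0.29, but -0.055 with library size alone and -0.061 pooled) and for Cstf3 in siPaf1 3'READS (1.14, but -0.34 with 3'-most exon reads alone and -0.32 with the block too). They also turned for Cstf2 in siCdc73 3'READS (-1.79 to 0.53 over left-out libraries, the highest without siCtrl of batch 1) and Papolg in siPaf1 3'UTR-APA (-0.33 to 3.16, the lowest without siCtrl of batch 1). The cause was not tested. Depth limits Pabpn1, Xrn2 and the Pcf11 intronic sites, which had few reads in the controls.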
